A study of Mus musculus with 56 samples.

Results

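Gene expression in the hippocampus of adult male mice that carry a deletion of the Sult1a1-Spn region was compared with that of their wildtype counterparts. All arrays whose labels give hippocampus as the tissue and either the deletion or the wildtype genotype were taken, which were 12 of the 56 arrays of the study, 4 from deletion carriers (Del/+) and 8 from wildtype mice (wt). All mice were on the C57BL/6N inbred background. The deletion, made by Cre-mediated recombination between loxP sites placed on either side of the region, is present on 1 chromosome of every cell, and no age beyond adult is given in the labels. The deleted interval lies on mouse chromosome 7, the counterpart of human 16p11.2, and runs from the start of Sult1a1 to the end of Spn (GRCm38.p6, chr7:126672865-127145552, 472.7 kb). Each array was taken to hold the RNA of 1 mouse. Arrays are named here by genotype and the last number of the label, which was read as a mouse number. The 4 hippocampus arrays of duplication carriers (Dup/+), which carry an extra copy of the same region, and the striatum and cerebellum arrays of Del/+ and wt mice are used only beside the hippocampus values.

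The hippocampus is needed for forming memories of places and events. Its granule cells of the dentate gyrus send axons to the pyramidal neurons of field CA3, which in turn drive those of CA1, and inhibitory interneurons are spread through all fields. Loss of the human 16p11.2 region is associated with intellectual disability and autism. The region holds genes of quite different roles, among them the presynaptic protein gene Prrt2, the kinase gene Taok2 and the cullin-3 adaptor gene Kctd13, and a gene present in a single working copy is often expressed at a reduced level.

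The values are log2 signals of 41155 probe sets on Affymetrix Mouse Gene 2.1 ST arrays, so that a difference of -1 stands for a signal cut to 50% and their precision is limited by how many arrays there are. Array medians lay between 4.81 and 4.87, and probe sets with a signal under 4.15, the 95th percentile of olfactory and vomeronasal receptor probe sets in wt, are called below background. Markers of hippocampal fields were high on all 12 arrays, with the granule cell gene C1ql2 between 9.0 and 9.78 against a wt mean of 5.53 in the striatum, while the striatal gene Drd1 lay between 5.10 and 6.06 against 10.02 there. The choroid plexus gene Ttr ranged from 9.22 to 12.86 and the thalamic gene Prkcd from 6.84 to 9.88, in both cases with overlap of the genotypes. The number 17 has the label wt for hippocampus and Del/+ for cerebellum, so if the labels hold it does not stand for 1 mouse in both. The hippocampus array wt 17 carried the interval genes at wt level. The array wt 6 stood apart from the other wt arrays and near Del/+ in genes of the clock and of chaperones, as given beside those results. Array numbers fall into 3 sets of 24, here called plates. These sets were read from the numbers alone, since neither the labels nor the methods assign arrays to plates. Each held both genotypes, with 1 Del/+ and 2 wt arrays on plate 1, 1 and 4 on plate 2, and 2 and 2 on plate 3. Differences within plates 1 and 2 therefore each rest on 1 Del/+ array. The labels do not say whether mice shared a litter or a dissection day, and p-values measure only the spread between these mice.

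Signals were fitted with limma for the 19389 probe sets that passed a filter on signal and variance, and p-values were adjusted over all of them with the method of Benjamini and Hochberg. At a false discovery rate (FDR) of 5%, 19 probe sets differed between Del/+ and wt, 17 lower and 2 higher in Del/+. Lower calls made up 0.0877% of all tested probe sets and higher calls 0.0103%. Of the 17 lower probe sets, 16 belong to the deleted interval and the other lists no gene. Of the 2 higher, 1 is the chaperone gene Sdf2l1 and the other lists no gene. At 10% FDR, 26 probe sets (0.134%) passed.

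The expression of the deleted genes was lower in the hippocampus of Del/+ mice, and it fell at 16 of the 28 interval probe sets tested. Of 36 annotated genes in the interval, 31 of them coding, 26 had a probe set of their own and 30 had their own or 1 shared with a neighbour. Of the 33 probe sets, 28 passed the filter, all 28 were lower in Del/+, and 16 passed at 5% FDR (13 probe sets of 12 single genes and 3 joint probe sets). Differences of the called probe sets ran from -0.95 to -0.57 with a median of -0.73, which corresponds to signals of 0.519 to 0.672 times the wt signal. The mean over 21 interval genes was 6.46 ± 0.03 (SD, n = 4) in Del/+ and 7.06 ± 0.05 (SD, n = 8) in wt, a ratio of 0.658. The 4 Del/+ arrays lay between 6.41 and 6.48 and the 8 wt arrays between 6.99 and 7.13 with a median of 7.07, so the groups were far apart. Within the 3 plates the difference of this mean was -0.64, -0.66 and -0.53. The hippocampus arrays of Dup/+ mice, which share the wt controls, had a mean of 7.46 ± 0.06 (SD, n = 4).

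**Figure D1:**
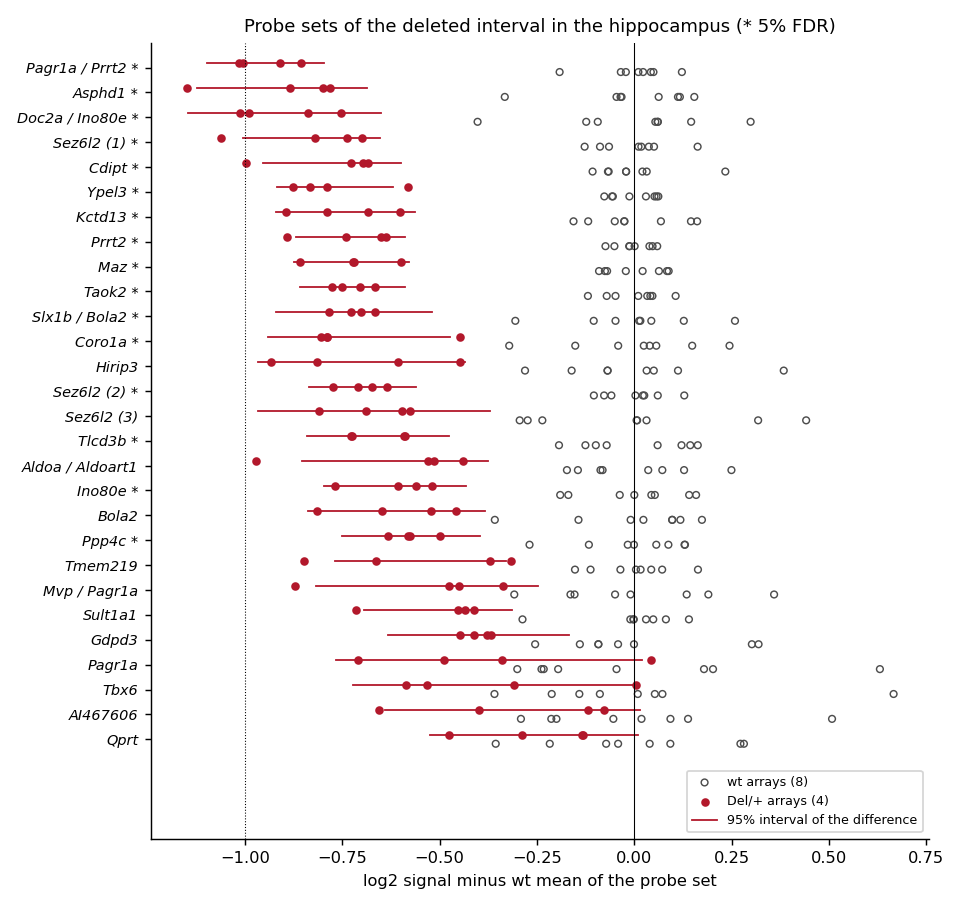
Log2 signal of each array minus the wt mean, for the 28 tested probe sets of the deleted interval (1 row per probe set, wt arrays open, Del/+ arrays filled, horizontal line the 95% confidence interval of the Del/+ difference, asterisk for 5% FDR, dotted line at -1). All 28 mean differences lie below 0, and in 24 of the 28 rows the Del/+ arrays do not overlap the wt arrays.

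Several interval genes act at synapses, and those with a strong signal were measured closely. Prrt2, whose product acts on transmitter release and is mutated in familial paroxysmal dyskinesia in humans, read 10.08, 9.93, 10.17 and 10.18 on the arrays of Del/+ mice 7, 11, 23 and 26, against 10.75 to 10.88 with a median of 10.82 in wt. All Del/+ arrays lay below all wt arrays, and the difference was -0.73 (SE 0.06, limma adjusted p = 0.000277). A joint probe set of Pagr1a and Prrt2 gave the largest interval difference, -0.95 (SE 0.07, adjusted p = 0.000123). Doc2a, a calcium sensor of vesicle release, was measured only on a probe set shared with Ino80e, which read 6.06, 5.91, 6.14 and 5.89 in Del/+ and 6.50 to 7.20 in wt, a difference of -0.90 (SE 0.11, adjusted p = 0.0046). This call was lost with all brain arrays in 1 fit (adjusted p = 0.21). Striatum and cerebellum differed at this probe set by -0.21 (SE 0.29) and -0.01 (SE 0.23). The test of that contrast between regions did not pass. In the cerebellum the probe set read low, with means of 4.60 in Del/+ and 4.60 in wt, against 6.90 in hippocampus wt. With a signal this low, the cerebellar value does not show whether dosage had an effect there. Sez6l2, a membrane protein of neurons that is a binding partner of glutamate receptors, had 3 probe sets with differences of -0.83 (adjusted p = 0.000485), -0.70 (0.000277) and -0.67 (0.217), all without overlap of the genotypes.

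Signalling genes of the interval fell to a like extent. Taok2, a kinase that activates the p38 and JNK pathways and shapes dendrites, read 8.47, 8.49, 8.54 and 8.57 on the Del/+ arrays and 9.12 to 9.35 with a median of 9.26 in wt, a difference of -0.72 (SE 0.06, adjusted p = 0.000277). Kctd13, which brings RhoA to the cullin-3 ubiquitin ligase, read 9.02, 8.92, 9.21 and 9.12 against 9.65 to 9.97, a difference of -0.74 (SE 0.08, adjusted p = 0.00145). Cdipt, the enzyme that makes phosphatidylinositol, fell by 0.78 (adjusted p = 0.00101), with arrays at 9.29, 9.03, 9.32 and 9.34 against 9.91 to 10.26. In none of these genes did a Del/+ array reach the lowest wt array. Ppp4c, the catalytic subunit of protein phosphatase 4, and Coro1a, an actin-binding protein prominent in immune cells and microglia, also fell, by 0.57 (adjusted p = 0.0127) and 0.71 (adjusted p = 0.0221). Their calls were less stable. Ppp4c stayed below 5% in 9 and Coro1a in 4 of the 12 fits that left out 1 array, and with plate as a block the adjusted p was 0.087 and 0.109.

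Genes with nuclear roles and genes of less known function completed the called set. Maz, a zinc finger transcription factor, fell by 0.73 (adjusted p = 0.000335), and Ino80e, a subunit of the INO80 chromatin remodelling complex, by 0.61 (adjusted p = 0.00859, below 5% in 10 of 12 fits without 1 array). Ypel3, which restrains cell growth, read 7.57, 7.28, 7.36 and 7.32 against 8.08 to 8.22, and Asphd1 read 5.70, 5.60, 5.68 and 5.33 against 6.15 to 6.64. Both were far outside the wt range, with differences of -0.77 (adjusted p = 0.000277) and -0.90 (adjusted p = 0.00145). Tlcd3b, a ceramide synthase, fell by 0.66 (adjusted p = 0.0046) and the joint probe set of Slx1b and Bola2 by 0.72 (adjusted p = 0.0046).

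The remaining interval probe sets did not pass at 5% FDR, and all of them had negative differences. At 10% FDR 21 interval probe sets passed, the 5 added being Bola2 (-0.61, adjusted p = 0.0681), Hirip3 (-0.70, 0.0701), Sult1a1 (-0.50, 0.0701), the joint probe set of Aldoa and the testis gene Aldoart1 (-0.61, 0.0857) and Tmem219 (-0.55, 0.0992). The groups did not overlap in 24 of the 28 probe sets, compared with 0.449% of all tested probe sets that lay below wt without overlap. The other 6 tested single or joint probe sets with weak signals did not pass at either level, namely the joint probe set of Mvp and Pagr1a (-0.53, SE 0.13), Gdpd3 (-0.40, SE 0.11), Pagr1a alone (-0.37, SE 0.18), Tbx6 (-0.36, SE 0.17), AI467606 (-0.31, SE 0.15) and Qprt (-0.26, SE 0.12). Their signals lay between 3.72 and 5.15 in the group means, with background at 4.15. The 5 probe sets removed by the filter, 4930451I11Rik, Cdiptos, Kif22, Zg16 and Spn, differed by -0.20, -0.16, -0.16, -0.13 and -0.04, and only 1 of them was above background. For 12 of the 16 called probe sets the 95% confidence interval of the difference stayed above -1, the value of a signal cut to 50%.

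The genes next to the deletion did not follow it. On the side of Sult1a1, Sgf29 differed by 0.14 and 0.12 on 2 probe sets, Nupr1 by -0.20 and Il27 by -0.16. On the side of Spn, Cd2bp2 differed by 0.07, Tbc1d10b by 0.00 and Mylpf by -0.09, with these 3 probe sets removed by the filter. In all 7 probe sets the genotypes overlapped. None of those on the side of Sult1a1 passed the test, and the 3 on the side of Spn were not part of the main test. Standard errors of the 7 were 0.06 to 0.19, so differences of that size were not detectable.

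Outside the interval 1 named gene passed at 5% FDR. Among 10966 tested probe sets that list a gene outside the interval, 1 was higher and 0 were lower at 5% FDR by limma, while 390 were higher and 322 lower at an unadjusted p under 0.05. At 10% FDR 3 were higher and 0 lower. The median difference was 0.00 with a median standard error of 0.10. A difference beyond 0.25 in either direction was seen in 725, beyond 0.5 in 39 and beyond 1 in 0 of them.

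The 1 gene called was Sdf2l1, which encodes a partner of DnaJ proteins in the endoplasmic reticulum and is induced when unfolded protein accumulates there. Sdf2l1 (chromosome 16) read 8.05, 7.69, 8.18 and 7.83 on the arrays of Del/+ mice 7, 11, 23 and 26, and 7.06 to 7.48 with a median of 7.22 in wt. Every Del/+ array was above every wt array, and the means were 7.94 ± 0.22 (SD, n = 4) and 7.23 ± 0.15 (SD, n = 8). It was 0.71 higher (SE 0.11, adjusted p = 0.0207), and the difference within the 3 plates was 0.75, 0.42 and 0.94. The call rests on a narrow margin. With plate as a block the adjusted p was 0.0861, and with the interval probe sets left out of the adjustment it was 0.124. It stayed below 5% in 6 of 12 fits without 1 array and was lost without Del/+ 7, 23 or 26 or wt 16, 44 or 56, with differences between 0.63 and 0.80 throughout. Without wt 6 the difference was 0.75 (adjusted p = 0.0134). Sdf2l1 differed by 0.24 in striatum, 0.39 in cerebellum and 0.08 in Dup/+ hippocampus.

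Some other genes of the endoplasmic reticulum that fold secreted proteins had values on the same side. Of 19 measured chaperones and stress factors of this compartment, 8 passed the filter, and the 1 called was Sdf2l1 itself. Of the other 7, 3 were higher at an unadjusted p under 0.05, 0 were lower, 5 had a positive difference and the median was 0.18. Of 9586 genes outside the interval, taken at 1 probe set each, 3.59% were higher and 2.7% lower at that level. Of these genes 52.6% had a positive difference, and the median was 0.01. This list and those below were chosen with earlier results of these data known, so counts set beside these shares are not a test. Xbp1, the transcription factor that switches on chaperone genes, read 8.94, 8.85, 8.97 and 8.98 against 8.58 to 8.83 in wt (difference 0.25, adjusted p = 0.499). Hyou1, an exchange factor for the chaperone BiP, read 8.51, 8.51, 8.52 and 8.64 against 8.24 to 8.43 (difference 0.23, adjusted p = 0.499). In both genes the Del/+ arrays lay above all wt arrays, yet neither passed the test.

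Hspa5, which encodes BiP itself, was removed by the variance filter. It read 7.72, 7.67, 7.70 and 7.87 against 7.21 to 7.71 in wt, so the genotypes overlapped, with wt 6 the highest wt array. The protein disulfide isomerase gene Pdia6 and the calcium-binding chaperone gene Calr, named here after their values were seen, differed by 0.34 and 0.19. The mean over the 18 measured genes other than Sdf2l1 was 8.42 to 8.46 on the Del/+ arrays, 8.45 on wt 6 and 8.28 to 8.34 on the other 7 wt arrays, so the genotypes overlapped through wt 6. The difference of this mean within the plates was 0.16, 0.11 and 0.10. With Sdf2l1 included, the mean of the 19 genes differed by 0.15, and by 0.04 for striatum, 0.02 for cerebellum and 0.00 for Dup/+ hippocampus. Without wt 6, the array nearest to Del/+, 4 of the 7 genes had an unadjusted p under 0.05, all higher, and the median was 0.22. On the other side of 0, Herpud1, Atf4, Dnajb9 and Canx differed by -0.09, -0.05, -0.07 and -0.02.

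**Figure D2:**
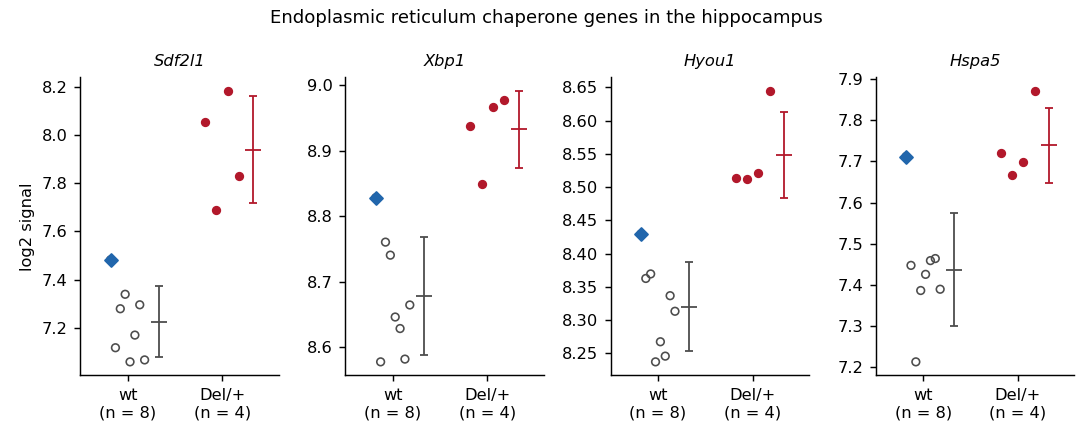
Log2 signal per array of Sdf2l1, Xbp1, Hyou1 and Hspa5 in the hippocampus of wt (open circles, n = 8) and Del/+ mice (filled circles, n = 4), with mean and SD as bars beside the points and wt 6 drawn as a diamond. The Del/+ arrays of Sdf2l1 lie at 7.69 to 8.18, above the wt arrays at 7.06 to 7.48, and in all 4 genes wt 6 is the highest wt array.

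Many promoters of this group carry a known stress element, CCAAT and CCACG separated by 9 bases, which the factors NF-Y and ATF6 recognise. Searched on both strands in the 250 bases before the start of each gene, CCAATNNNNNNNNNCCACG was found in 7 of 17 promoters of the list (41.2%) and in 33 of 27025 promoters in all (0.122%). The Sdf2l1 promoter lacked this exact spacing and held CCAAT and CCACG separately, and CCACG alone was found in 13 of 17 promoters of the list (76.5%) and in 28.2% of all. Stretches of Hspa5 (chr2:34772010-34772058, plus strand), Pdia6 (chr12:17266476-17266524, plus strand), Calr (chr8:84847060-84847108, minus strand) and Sdf2l1 (chr16:17132384-17132603, minus strand) from RefSeq, build GRCm38.p6, are shown 5′ to 3′ on the strand of the gene because they let the element be compared with the promoter of the called gene. Capitals mark the whole element in the first 3 (in Calr it lies on the opposite strand) and each CCAAT or CCACG on either strand in Sdf2l1. The first 3 genes shown had positive differences. The whole element was also found in Canx, given above with a negative difference, so genes with a match differed in both directions. A match describes the sequence only.
Hspa5: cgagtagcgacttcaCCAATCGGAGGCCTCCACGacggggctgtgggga
Pdia6: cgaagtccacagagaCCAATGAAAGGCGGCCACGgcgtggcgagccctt
Calr: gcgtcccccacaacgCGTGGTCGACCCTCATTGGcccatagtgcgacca
Sdf2l1: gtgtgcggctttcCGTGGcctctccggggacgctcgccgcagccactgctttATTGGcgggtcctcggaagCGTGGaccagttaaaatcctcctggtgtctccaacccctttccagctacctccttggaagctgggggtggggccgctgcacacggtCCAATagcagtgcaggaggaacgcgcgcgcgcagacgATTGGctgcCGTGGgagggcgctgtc

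Chaperones of the cytosol had values on the same side as well. Of 20 measured heat shock genes 11 passed the filter, 10 of them with a positive difference, 4 higher and 0 lower at an unadjusted p under 0.05, with a median of 0.17 and no call at 5% FDR. Among all genes outside the interval 52.6% had a positive difference, 3.59% were higher and 2.7% lower at that level. Hsph1, a large heat shock protein of the cytosol, was 9.32 ± 0.09 (SD, n = 4) in Del/+ and 9.09 ± 0.13 (SD, n = 8) in wt, a difference of 0.23 (limma adjusted p = 0.646). Stip1 and Ahsa1, partners of Hsp90 that the filter removed, differed by 0.20 and 0.15. The mean of the list ran from 7.99 to 8.06 in Del/+ and from 7.79 to 8.03 in wt, again with wt 6 at the top of wt, so the genotypes overlapped.

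Genes of the circadian clock formed the list with the most negative median, without a call. The clock runs through the activators Clock and Arntl, which switch on repressors of the Per and Cry families and output factors such as Dbp and Ciart, and RNA levels in tissue therefore depend on the hour of sampling. The labels do not give that hour. Of 16 genes that passed the filter, 7 were lower and 2 higher at an unadjusted p under 0.05, 5 had a positive difference, and the median was -0.22, with adjusted p-values from 0.495 to 0.981. Among all genes outside the interval 2.7% were lower and 3.59% higher at that level. Ciart, a repressor of the clock, read 6.43, 6.04, 7.10 and 6.40 in Del/+ and 6.50 to 8.0 with a median of 7.56 in wt, a difference of -0.97 (adjusted p = 0.495). Dbp, an output factor, read 7.89, 7.87, 8.67 and 8.21 against 8.17 to 9.30 with a median of 8.91, a difference of -0.71 (adjusted p = 0.52). In both genes the lowest wt array was wt 6, and the other 7 wt arrays of Ciart all lay above the 4 Del/+ arrays.

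The other limb of the clock pointed the opposite way. Arntl, the activator, read 8.97, 9.10, 8.54 and 8.67 in Del/+ against 8.23 to 8.77 in wt, where wt 6 was highest and the next wt array read 8.49 (difference 0.43, adjusted p = 0.52). Nfil3, which opposes Dbp at shared sites, differed by 0.24, and the Dbp relative Hlf by -0.26 with no overlap of the genotypes (8.33 to 8.66 against 8.67 to 8.94). Nr1d1 and Nr1d2, the nuclear receptors that repress Arntl, differed by -0.44 and -0.36, Bhlhe41 by -0.36 and Per3 by -0.32. Clock itself, Bhlhe40 and Cry1 differed by 0.09, 0.02 and 0.08. Within plates the difference of Ciart was -1.31, -1.24 and -0.82 and that of Arntl 0.71, 0.62 and 0.26. Without wt 6, 8 genes were lower and 2 higher at an unadjusted p under 0.05, the median was -0.23, and the adjusted p of Ciart was 0.0922. In the striatum Ciart, Dbp and Arntl differed by -0.37, -0.24 and 0.17, in the cerebellum by -0.31, -0.30 and 0.23, and in Dup/+ hippocampus by 0.23, 0.17 and -0.20.

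**Figure D3:**
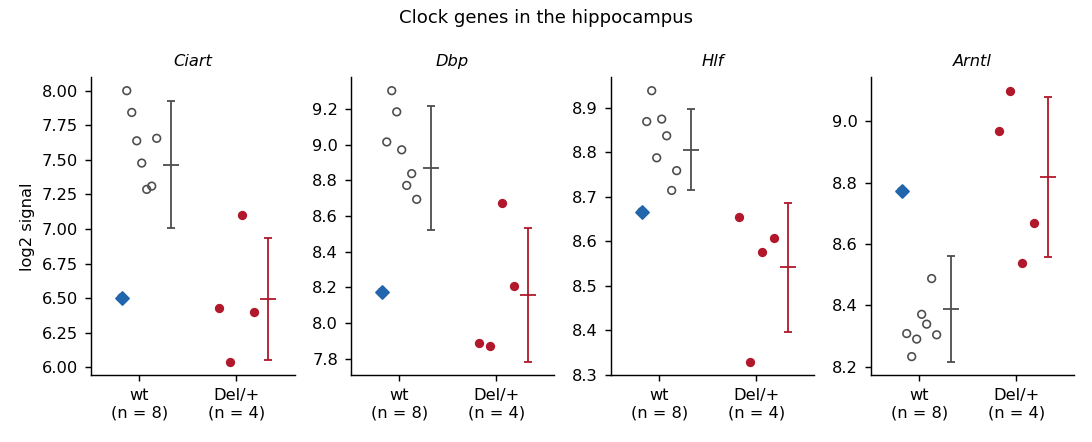
Log2 signal per array of the clock genes Ciart, Dbp, Hlf and Arntl in the hippocampus of wt (open circles, n = 8) and Del/+ mice (filled circles, n = 4), with mean and SD as bars beside the points and wt 6 drawn as a diamond. In all 4 genes wt 6 is the wt array closest to the Del/+ arrays, and none of the 4 differences passed the test.

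Clock and Arntl bind the E-box CACGTG, a palindrome that reads the same on both strands. It was found in the 250 bases before the start of 5 of 16 clock genes with a promoter in the table (31.2%) and of 1634 of 27025 genes in all (6.05%). Ciart, which had the largest difference of the list, holds 3 copies (chr3:95882252-95882359, minus strand). Bhlhe41 (chr6:145865553-145865588, minus strand) and Tef (chr15:81802531-81802566, plus strand), which differed by -0.36 and -0.08, hold the same letters. Cry1, given above with a positive difference, also holds the E-box, so genes with a match differed in both directions. The sequences are from RefSeq, build GRCm38.p6, 5′ to 3′ on the strand of the gene, with the E-box in capitals.
Ciart: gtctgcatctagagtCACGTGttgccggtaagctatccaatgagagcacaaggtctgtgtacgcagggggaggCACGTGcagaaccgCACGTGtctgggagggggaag
Bhlhe41: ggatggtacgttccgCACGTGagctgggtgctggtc
Tef: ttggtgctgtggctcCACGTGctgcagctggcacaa

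The mean of the dentate granule cell markers was higher on every Del/+ array than on every wt array, although no marker passed alone. Of the markers named here, only Rasl10a had no overlap of the genotypes (7.22 to 7.55 in Del/+ against 6.77 to 7.20 in wt). All 12 genes that passed the filter had positive differences, 4 with an unadjusted p under 0.05, and the median was 0.20. Among all genes outside the interval 52.6% had a positive difference and 3.59% were higher at that level. The mean of the 12 markers was 7.89 to 8.04 in Del/+ and 7.48 to 7.86 with a median of 7.64 in wt. Lct differed by 0.57, the desmosome gene Dsp by 0.61, Tdo2, which degrades tryptophan, by 0.38, Rasl10a by 0.39, the fate gene Prox1 by 0.21 and the synapse organiser C1ql2 by 0.22. Dsp ranged from 5.78 to 7.31 in wt and from 7.25 to 7.44 in Del/+, so its wt arrays were spread widely while its Del/+ arrays were close together. The difference of the mean was 0.17, 0.40 and 0.20 within plates, and 0.00 in Dup/+ hippocampus. In bulk tissue, more cells of a type and more RNA per cell cannot be told apart, and the part of this in the difference was not tested. Without wt 6, which had the lowest mean of wt, 5 of the 12 genes had an unadjusted p under 0.05 and the median was 0.19.

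The list means of the other cell types given here overlapped between genotypes. Of 12 genes of CA1 and CA2 pyramidal neurons 1 was higher at an unadjusted p under 0.05 (Spink8, 0.36) and the median was 0.06. Of 9 genes listed here for CA3 neurons 2 were higher (Crhbp 0.23 and Nptx1 0.21) and the median was 0.06. Which cells expressed Crhbp was not tested. Of 16 interneuron genes 2 were higher (Npy 0.30 and the serotonin receptor gene Htr3a 0.34) and the median was 0.02. Medians were -0.02 for astrocytes, 0.00 for oligodendrocytes, 0.04 for microglia, -0.02 for choroid plexus and 0.03 for thalamus and habenula, and no gene of these lists was called at 5% FDR. The list of the choroid plexus ranged from 5.16 to 6.84 in Del/+ and from 5.12 to 7.29 in wt. The part of cell makeup in the differences of other genes was not tested.

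Genes that follow neuronal activity leaned upwards without a call. Of 20 immediate early genes 19 had positive differences with a median of 0.17, yet 0 had an unadjusted p under 0.05. Among all genes outside the interval 52.6% had a positive difference. The mean of the 20 genes was 7.19 to 7.61 in Del/+ and 6.87 to 7.66 in wt, and the within-plate differences of 0.62, 0.04 and 0.13 were unlike. This mean differed by 0.19, and by 0.23 for striatum, 0.00 for cerebellum and 0.13 for Dup/+ hippocampus. Bdnf, the neurotrophin, differed by 0.19 and the transcription factor gene Egr3 by 0.18. Of 18 neuropeptide and granin genes 16 had positive differences with a median of 0.11. Npy read 9.66, 9.80, 9.93 and 9.82 in Del/+ and 9.34 to 9.64 in wt (difference 0.30, limma adjusted p = 0.499), and Vgf, an activity-induced secreted peptide precursor, read 9.08, 8.99, 9.15 and 9.03 against 8.59 to 8.89 (difference 0.29, adjusted p = 0.463). Neither overlapped wt, and both were short of the threshold. Vgf differed by 0.28 in striatum, 0.44 in cerebellum and 0.04 in Dup/+ hippocampus, and Npy by 0.14, 0.03 and -0.04.

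The pathways in which interval genes act had medians between -0.03 and 0.11, and none of their genes was called. Of 9 kept members of the MAP kinase cascades 0 passed an unadjusted p under 0.05 and the median was 0.01, and of 10 of the p38 pathway, fed by Taok2, 0 passed and the median was 0.00. For 15 targets and feedback inhibitors of ERK the median was 0.11, with Dusp4, a phosphatase of ERK, at 0.34 (adjusted p = 0.49) and Spry4 at 0.33 (adjusted p = 0.758). Of 8 members of the cullin-3 and RhoA pathway of Kctd13 0 passed, with a median of 0.03. The same held for 9 genes of phosphoinositide synthesis and turnover (0 passed, median 0.02), 4 partners of protein phosphatase 4 (0 passed, median -0.02) and 9 CREB factors and coactivators (0 passed, median -0.03). Among 9 AKT and mTOR genes 1 was higher (Akt2, 0.22, adjusted p = 0.683) and the median was 0.03.

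No receptor gene of the lists given here was called. Of 16 ionotropic glutamate receptor genes 0 had an unadjusted p under 0.05, with a median of 0.01, and the AMPA receptor gene Gria1 was 11.23 ± 0.07 (SD, n = 4) in Del/+ and 11.13 ± 0.08 (SD, n = 8) in wt. Of 10 listed GABA receptor genes 0 passed, 1 had a positive difference and the median was -0.03. This list left out the subunit gene Gabrr2, which differed by -0.54 (limma unadjusted p = 0.000855, adjusted p = 0.361) and is given below. Of 6 metabotropic glutamate receptor genes 1 was lower at an unadjusted p under 0.05 (Grm8, -0.20, named after its values were seen) and the median was -0.05. Among 20 genes of vesicle release, Doc2b, a relative of the deleted Doc2a, read 8.25, 8.13, 8.18 and 8.42 in Del/+ against 7.77 to 8.10 in wt, a difference of 0.35 without overlap (limma adjusted p = 0.416). Unc13c, a priming factor, differed by -0.44 (adjusted p = 0.726), with wt 17 at 8.58 and the other wt arrays at 7.39 to 7.81. Of 20 synaptic adhesion genes 2 were lower at an unadjusted p under 0.05, Ptprd (-0.22) and Il1rapl1 (-0.20), and the median was -0.03.

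**Figure D4:**
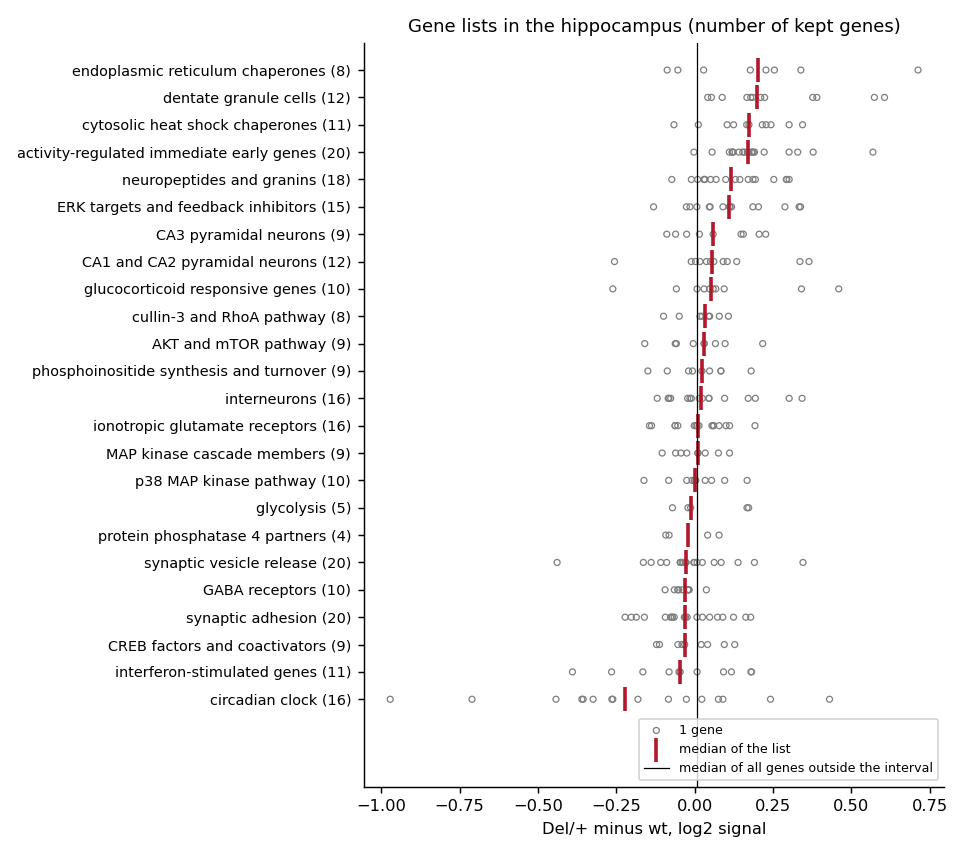
Difference of log2 signal, Del/+ minus wt, in the hippocampus for each kept gene (open circles) of 24 gene lists, with the median of the list as a red bar and the number of kept genes in brackets, and the median of all genes outside the interval as a vertical line. The lists of chaperones, dentate granule cells and immediate early genes lie furthest to the right with medians of 0.17 to 0.20, and the circadian clock lies furthest to the left at -0.22.

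Stress and metabolic genes gave scattered values. Of 10 glucocorticoid responsive genes 2 were higher at an unadjusted p under 0.05, Fkbp5, a co-chaperone of the glucocorticoid receptor, by 0.34 (adjusted p = 0.549) and Cdkn1a by 0.46 (adjusted p = 0.37), and the median was 0.05. Cdkn1a, the cell cycle inhibitor p21, read 7.25, 7.20, 7.26 and 7.16 in Del/+ and 6.51 to 7.03 with a median of 6.76 in wt. Its Del/+ arrays were close to each other and above all wt arrays, and its difference was 0.48, 0.45 and 0.45 within plates. Of 11 interferon-stimulated genes 0 passed (median -0.05), and of 5 glycolysis genes 1 was higher (Pfkl, 0.17, adjusted p = 0.704). The interferon-stimulated gene Rsad2, which the filter removed, differed by 0.34. It read 4.66 to 4.91 in Del/+ and 4.27 to 4.63 in wt, without overlap.

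The single genes outside the interval with the smallest p after Sdf2l1 passed at 10% FDR or not at all. Lrrc10b, a leucine-rich repeat gene, read 6.94, 7.11, 7.10 and 7.04 in Del/+ and 6.37 to 6.76 in wt, a difference of 0.51 (adjusted p = 0.0857). In Dup/+ hippocampus it differed by 0.43 (SD of the Dup/+ arrays 0.43, n = 4) without a call. Its wt mean was 8.86 in striatum against 6.54 in hippocampus. The mean of striatal projection neuron genes differed by 0.64 in Dup/+ hippocampus and by -0.01 in Del/+. The part of striatal tissue in the Dup/+ value was not tested. The long noncoding RNA gene A930024E05Rik differed by 0.35 (adjusted p = 0.0992), with 6.76, 6.65, 6.81 and 6.76 against 6.30 to 6.49. Kctd21, which like Kctd13 encodes a BTB-domain adaptor of cullin-3, read 6.82, 6.66, 6.91 and 6.74 against 6.13 to 6.56 and differed by 0.48 (adjusted p = 0.265). The peptide gene Apln differed by 0.46 (adjusted p = 0.378) and 4933432I09Rik by 0.33 (adjusted p = 0.326). Joint probe sets of histone genes, that of H3c15 and others and that of H1f4 and others, differed by 0.41 and 0.45 (adjusted p = 0.111 and 0.254). Across all tested probe sets 0.485% lay above wt without overlap, against which these genes, chosen for their small p, cannot be read.

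On the lower side no gene outside the interval passed. Joint probe sets were not ranked here, and that of Rbm3-ps and Rbm3 differed by -0.45 without wt 6 (limma adjusted p = 0.0473). The 8 single genes with the smallest p were Mir376b, Frmd3, Tnfrsf18, Nrxn2, Gabrr2, Slc35f1, Map4k1 and Mir654. Their differences ran from -0.54 to -0.31, with adjusted p-values of 0.175 to 0.378. Nrxn2, a presynaptic adhesion gene, differed by -0.39 on this probe set and by -0.09 on its other, stronger one, and the solute carrier gene Slc35f1 by -0.40 and -0.14, so for both genes the probe sets disagreed in size. Gabrr2, a GABA receptor subunit, read 3.97, 4.16, 4.09 and 4.09 in Del/+, near background.

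Mir376b and Mir654 are neighbours in the imprinted cluster of miRNA genes on chromosome 12, where many miRNAs are processed from a transcript of the maternal chromosome. The mature sequences, from RefSeq, are shown because these were the 2 lowest-p miRNA genes, with the seed (bases 2 to 8), which sets target choice, in capitals. The 4 seeds differ from each other, and that of mmu-miR-376b-5p is shared with 1 other mouse miRNA, mmu-miR-376c-5p. Array probe sets for these genes read the precursor region and not a given mature arm.
mmu-miR-376b-5p: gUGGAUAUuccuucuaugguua
mmu-miR-376b-3p: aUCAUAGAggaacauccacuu
mmu-miR-654-5p: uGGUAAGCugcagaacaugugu
mmu-miR-654-3p: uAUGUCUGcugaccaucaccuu

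Mir376b read 7.36, 7.19, 7.27 and 7.34 in Del/+ and 7.53 to 7.84 with a median of 7.61 in wt, so the genotypes did not overlap (difference -0.35, SE 0.07, adjusted p = 0.175). Mir654 read 7.18, 7.54, 7.35 and 7.31 against 7.50 to 7.81 and overlapped through Del/+ 11 (difference -0.36, adjusted p = 0.378). The whole cluster from Mir379 to Mir410 (GRCm38.p6, chr12:109709060-109743795), these 2 genes included, was then examined, a choice made after these values were seen. Of its 36 probe sets 26 passed the filter, 25 of these had negative differences, 6 were lower and 0 higher at an unadjusted p under 0.05, 0 passed at 5% FDR and the median was -0.17. Without Mir376b and Mir654, 23 of 24 differences were negative, 4 were lower at that level and the median was -0.16. The 228 kept probe sets of other miRNA genes had 134 negative differences and a median of -0.03. The probe sets of the cluster may share a transcript and are not independent. The mean of the cluster was 6.41 to 6.47 in Del/+ and 6.39 to 6.75 with a median of 6.63 in wt, so the genotypes overlapped, and it differed by -0.20, -0.11 and -0.21 within plates. Its median difference was -0.15 for striatum, 0.01 for cerebellum and 0.12 for Dup/+ hippocampus.

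**Figure D5:**
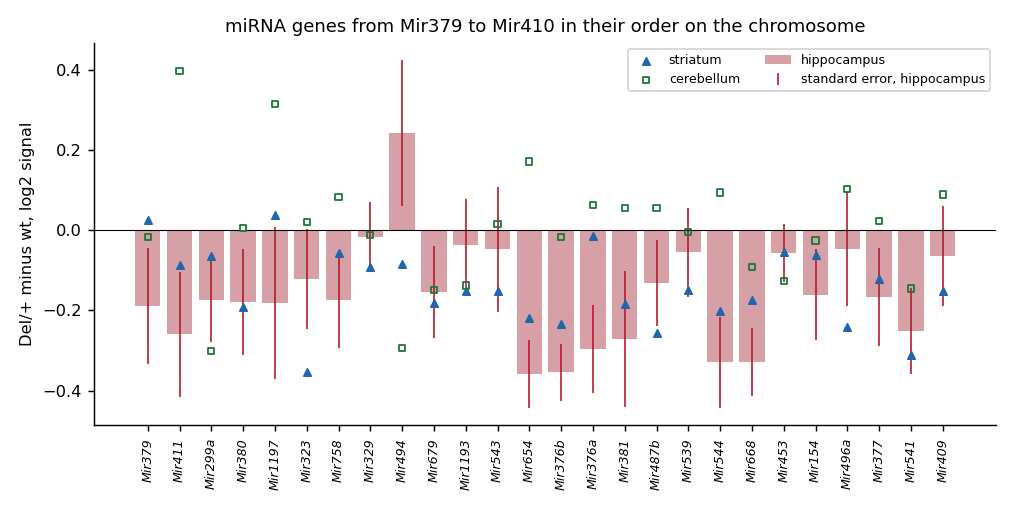
Difference of log2 signal, Del/+ minus wt, for the 26 tested probe sets from Mir379 to Mir410 in the order of their genes on the chromosome, with bars and standard errors for the hippocampus, triangles for the striatum and squares for the cerebellum. In the hippocampus 25 of 26 differences are below 0, and none passed at 5% FDR.

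The hippocampal differences were set against those of the other brain regions, which were normalized together with it. In the striatum (4 Del/+ and 8 wt arrays) 0.098% of the probe sets passed at 5% FDR, 16 of the interval and 1 gene outside it, and in the cerebellum (3 Del/+ and 6 wt arrays) 0.0722%, 12 of the interval and 0 outside. The mean of the interval genes differed by -0.60 (hippocampus), -0.62 (striatum) and -0.71 (cerebellum). The contrast of the Del/+ difference in the hippocampus minus that in the striatum was called for 0 probe sets (0%) by limma at 5% FDR, with 915 at an unadjusted p under 0.05 and a lowest adjusted p of 0.23. The contrast with the cerebellum was likewise called for 0 (0%), with 967 at that level and a lowest adjusted p of 0.206. In these fits neither Sdf2l1 nor any gene named above was shown to differ in its response between the regions.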

How the data were processed

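Total RNA of the hippocampus was hybridized to arrays, and 1 array was taken to stand for 1 mouse. The deposited values, which the authors made with Affymetrix Expression Console and quantile normalization over the 44 brain arrays, are 1 per probe set and array and were read as log2 signals from their range. The background correction is not given in the sources used here. The filter of the study's methods was applied over the brain arrays, requiring a maximum of at least the overall median (4.85) and a variance above the 25th percentile. This left 19389 of 41155 probe sets, 10994 of them with a gene. Genes were named from probe sets that list 1 gene (23521 in all), and joint probe sets (1820) as joint.

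Del/+ and wt were compared with limma (version 3.58.1) in R (version 4.3.3), two-sided, in a fit that was tested on simulated data. The study fitted a dosage slope, replaced here by the group difference. Lists take 1 probe set per gene. Named are all interval genes, 3 measured neighbours on each side, genes called outside (or the 8 of smallest p in a direction with fewer than 8 calls) and, per list, up to 4 members of smallest p. Pdia6, Calr, the miRNA cluster and further members given by value were named after their values were seen. Members and lists were chosen with earlier results of these data known. Alternatives covered the filter, the arrays fitted, plate as a block, moderation, normalization, array weights, the adjustment and each array left out, and after the data were seen an adjustment without interval and unnamed probe sets and lists without wt 6. Python (version 3.11.15) and matplotlib (version 3.10.9) made tables and plots. Some items are not reported here.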

Additional observations from a re-analysis of the deposited data

Results flagged for a closer look

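For 118 named probe sets and the mean of the interval genes, each group of 4 Del/+ or 8 wt arrays was searched for 1 array far from the rest of its group (Dixon's criterion at 95%). Chance alone flags about 1 in 20 groups. Of 238 groups 21 held such an array, 11 of them in Del/+.

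In the deleted interval, Cdipt read 9.03 on Del/+ 11 (others 9.29 to 9.34) and 10.26 on wt 29 (others 9.91 to 10.05). Sult1a1 read 4.75 on Del/+ 7 (others 5.01 to 5.05) and 5.18 on wt 17 (others 5.45 to 5.60). Coro1a read 7.38 on Del/+ 23 (others 7.03 to 7.04), the joint probe set Aldoa;Aldoart1 read 5.12 on the same array (others 5.57 to 5.65), Asphd1 read 6.15 on wt 6 (others 6.44 to 6.64) and Tbx6 read 5.67 on wt 49 (others 4.65 to 5.08). None of these Del/+ arrays reached the wt range of its gene.

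Outside the interval, Del/+ 23 stood apart in Nrxn2 (7.27) and Egr3 (9.04), Del/+ 26 in Ociad2 (9.81), Gria4 (8.66) and Hyou1 (8.64), and Del/+ 11 in Crhbp (7.67) and Grin2a (9.98). Among wt arrays, wt 6 stood apart in Arntl (8.77, others 8.23 to 8.49) and Camk4 (8.71), wt 16 in Egr3 (9.09), wt 17 in Unc13c (8.58, others 7.39 to 7.81), wt 29 in Ifi27 (7.27) and wt 35 in Pou3f1 (7.51).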

How the results depend on the processing

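The number of interval probe sets called at 5% FDR (16) was 14 to 21 under the other filters, fits and adjustments tried, and 13 to 17 when 1 array was left out. Outside the interval, the count of 1 at 5% FDR became 2 with the Dup/+ arrays in the fit (A930024E05Rik added, adjusted p = 0.0341) and 2 with all brain arrays (Kctd21 added, adjusted p = 0.018), became 0 with plate as a block, with the interval probe sets left out of the adjustment, and with interval and unnamed probe sets left out, and ran from 0 to 3 when 1 array was left out. The count of 3 at 10% FDR became 1 with no filter, 1 with the filter worked out over the 12 arrays, 1 with plate as a block, 5 with the filter on low signal alone, 5 with all brain arrays, 5 with a variance trend and robust moderation, 0 with the interval left out and 0 with unnamed probe sets left out too, and ran from 0 to 5 when 1 array was left out. Fewer strong calls in the adjustment raise every adjusted p when the interval is left out, and the cause was not tested for the other settings. The contrast of the hippocampus with the cerebellum called 1 probe set with all brain arrays in the fit, and both contrasts called 0 when 1 hippocampus Del/+ array was left out. Same-numbered arrays of 2 regions did not deviate together (correlations of -0.03 to 0.03), and with the mouse number as a replicate block both contrasts called 0. Values of 118 named probe sets were recomputed with no filter, with the Dup/+ arrays, with plate as a block, with a variance trend and robust moderation, with quantile normalization and with array weights. Of these 699 kept their direction and side of the 5% threshold, 3 lost the call (Sdf2l1, Coro1a and Ppp4c, all with plate as a block), 6 gained it, and 0 reversed. With 1 array left out, 1395 kept both, 19 lost and 2 gained the call, and 0 reversed. With 4 Del/+ arrays and a median standard error of 0.10, small changes of single genes could not be called.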
